A study of Mus musculus with 6 samples.

Results

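The subject here is the set of 7 genes that carry out and restrain necroptosis, namely Zbp1, Ripk1, Ripk3, Mlkl, Fadd, Cflar and Tradd, taken by symbol from a table of 56980 genes. All 7 passed the low-count filter and are among the 16010 genes tested. RNA was sequenced from monocytes, labelled wild type, that were sorted from mCherry-marked B16F10 tumours (a mouse melanoma line) as CD11b-positive, Ly6C-high and Ly6G-negative cells. The tumours had been treated with LNP-Gsdme (3 libraries, 1 to 3) or with LNP-GFP (3 libraries, 1 to 3), where LNP is a lipid nanoparticle. The series title gives gasdermin E, the Gsdme product and a pore-forming protein, as the protein encoded by the delivered mRNA, and GFP is green fluorescent protein, a control cargo. Nanoparticles were thus present in both groups, and no untreated tumour is among these libraries. Neither the dose, the time of sorting, the age of the mice nor any pooling of animals is given in the labels. Nothing in the labels says that the libraries came from separate mice, so the p-values rest on a spread between libraries that may be purely technical.

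Necroptosis is a lytic form of cell death that needs no caspases. RIPK3, a kinase, phosphorylates MLKL, which then oligomerises and permeabilises the plasma membrane. RIPK3 is engaged through a shared interaction motif (RHIM) by RIPK1 below tumour necrosis factor receptors, by TRIF (the Ticam1 product) below Toll-like receptors, and by ZBP1, an interferon-inducible sensor of Z-form nucleic acids. TRADD and FADD are death-domain adaptors, and FADD brings in caspase-8. Caspase-8 paired with cFLIP, the product of Cflar, cleaves RIPK1 and RIPK3 and so holds necroptosis back. In macrophages the same proteins also feed inflammasome activation and cytokine production.

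Library totals were 15991826 to 18751784 counts in LNP-Gsdme and 20233559 to 22932095 counts in LNP-GFP. Summed monocyte markers (9 genes, among them Lyz2 and Ccr2) stood at 6719 to 8888 CPM in LNP-Gsdme and 6587 to 7969 CPM in LNP-GFP, where CPM are counts scaled to a common library total with TMM factors; 4 of the 9 rose and 1 fell. Ly6g, the neutrophil marker sorted against, had 0 to 11 counts per library. The sorted fractions also held fibroblast transcripts: 8 markers led by Col1a1, of which 4 fell, summed to 2169 to 5632 CPM in LNP-Gsdme and 9073 to 10131 CPM in LNP-GFP (exact permutation p = 0.1, two-sided, the smallest that 3 against 3 allows). NK cell markers (8, of which 1 rose) summed to 186 to 246 CPM in LNP-Gsdme and 61.1 to 178 CPM in LNP-GFP (exact permutation p = 0.1), and T cell markers (8, of which 0 passed) to 442 to 570 CPM in LNP-Gsdme and 177 to 523 CPM in LNP-GFP (exact p = 0.2). Melanoma cell markers (7) summed to 124 to 724 CPM in LNP-Gsdme and 324 to 1752 CPM in LNP-GFP (exact permutation p = 0.2). Dendritic cell markers (8, of which 4 fell) summed to 69.4 to 106 CPM in LNP-Gsdme and 128 to 173 CPM in LNP-GFP. Endothelial markers (6, of which 1 fell) summed to 202 to 246 CPM in LNP-Gsdme and 263 to 298 CPM in LNP-GFP (exact permutation p = 0.1 for both lists). Macrophage, neutrophil and B cell sums overlapped between the groups (exact permutation p = 0.2, 1.0 and 0.8). Of the macrophage markers 1 rose and 1 fell, and of the neutrophil markers 1 rose. No marker of any list was at 0 in all 6 libraries. The mitochondrial share of counts was 1.30 to 1.61% in LNP-Gsdme and 2.02 to 2.41% in LNP-GFP (exact permutation p = 0.1). In these bulk samples, fewer cells of a type and less RNA per cell cannot be told apart, and the part of the other cell types in the results below was not tested. Gsdme itself stood at 3.43, 2.68 and 3.20 CPM in LNP-Gsdme 1 to 3 and at 2.79, 4.44 and 3.95 CPM in LNP-GFP 1 to 3 (edgeR quasi-likelihood adjusted p = 0.450).

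Transcripts of the sensor, the kinase below it and the executioner of necroptosis were higher in the sorted fractions from LNP-Gsdme tumours. Those of the adaptor Fadd and the brake Cflar overlapped between the groups. Zbp1 rose 2.09-fold, Mlkl 1.57-fold and Ripk3 1.37-fold, so 3 of the 7 genes rose and 0 fell at an adjusted p below 0.05. Over all 16010 tested genes, 6.30% rose and 5.32% fell. Among the 7 genes the median change was 0.35 on the log2 scale, beside -0.01 for all tested genes. In 5 of the 7 (Zbp1, Ripk1, Ripk3, Mlkl and Tradd) every LNP-Gsdme library lay above every LNP-GFP library, a pattern shown by 19.6% of tested genes (37.8% were without overlap in either direction).

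Zbp1 (ENSMUSG00000027514, chromosome 2, 173048405 to 173060716, GRCm39) had the largest change of the 7. It reached 354, 362 and 326 CPM in LNP-Gsdme 1 to 3, against 177, 140 and 181 CPM in LNP-GFP 1 to 3. The lowest LNP-Gsdme library thus lay well above the highest LNP-GFP library, and LNP-GFP 2 was the lowest of all. This is a log2 fold change of 1.07 ± 0.12 (SE over 3 libraries a group; adjusted p = 0.00753 by the edgeR test), above that of 98.0% of tested genes. Zbp1 passed under each of 13 alternative settings, with log2 fold changes between 0.96 and 1.14 and a highest adjusted p of 0.0482 (without LNP-GFP 3). LNP-GFP 2, where Zbp1 was lowest, also held the lowest sums of NK and T cell markers (61.1 and 177 CPM) and the highest sum of melanoma markers (1752 CPM). Without that library the log2 fold change of Zbp1 was 0.96 (adjusted p = 0.00895).

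Of the RHIM kinases, Ripk3 rose and Ripk1 did not pass. Ripk3 (ENSMUSG00000022221, chromosome 14, 56022452 to 56026322), the kinase that activates MLKL, had 142, 114 and 124 CPM in LNP-Gsdme 1 to 3, against 94.8, 93.5 and 89.6 CPM in LNP-GFP 1 to 3. The LNP-GFP libraries lay close together, LNP-Gsdme 1 was the highest, and the groups did not overlap. Ripk3 thus differed by 0.45 ± 0.09 on the log2 scale (SE over 3 libraries a group; adjusted p = 0.0327). The call on Ripk3 was lost without LNP-Gsdme 1 (adjusted p = 0.103), LNP-Gsdme 2 (0.0721), LNP-GFP 2 (0.0649) or LNP-GFP 3 (0.136), with log2 fold changes of 0.36 to 0.52 over the 6 fits that leave out a library. Ripk1 (ENSMUSG00000021408, chromosome 13, 34186346 to 34221130), the kinase at tumour necrosis factor receptors, had 101, 105 and 105 CPM in LNP-Gsdme 1 to 3, against 91.3, 94.0 and 93.9 CPM in LNP-GFP 1 to 3. Its groups did not overlap either, but the gap was small: it came to 0.16 ± 0.06 on the log2 scale (SE over 3 libraries a group; adjusted p = 0.142). It passed under 0 of the 13 alternatives. The Ripk1 locus overlaps Serpinb6a (516 to 1155 counts per library) over 432 bases, and how shared reads were counted is not stated.

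Mlkl (ENSMUSG00000012519, chromosome 8, 112038429 to 112064809), the pseudokinase that breaches the membrane, had 60.7, 51.8 and 59.6 CPM in LNP-Gsdme 1 to 3, against 32.7, 39.2 and 37.6 CPM in LNP-GFP 1 to 3. The groups were clearly apart, and within LNP-GFP the order of libraries was not that of Zbp1: LNP-GFP 2 was highest for Mlkl and lowest for Zbp1. Mlkl differed by 0.65 ± 0.10 on the log2 scale (SE over 3 libraries a group; adjusted p = 0.0188). It did not pass without LNP-Gsdme 1 (adjusted p = 0.0849), LNP-Gsdme 2 (0.0526) or LNP-GFP 3 (0.0967), where the log2 fold change was 0.61, 0.72 and 0.68.

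The death-domain adaptors behaved unlike each other. Tradd (ENSMUSG00000031887, chromosome 8, 105984918 to 105991241), which docks on the tumour necrosis factor receptor, had 34.2, 33.9 and 29.1 CPM in LNP-Gsdme 1 to 3, against 25.4, 24.2 and 26.6 CPM in LNP-GFP 1 to 3. The groups did not overlap, with LNP-Gsdme 3 nearest to LNP-GFP. The difference in Tradd was 0.35 ± 0.10 on the log2 scale (SE over 3 libraries a group; adjusted p = 0.0621). Tradd lay near the threshold: it passed by DESeq2 (adjusted p = 0.0417), with library-size scaling alone (0.0446) and without LNP-Gsdme 3 (0.0392), and failed under the other 10 alternatives. Fadd (ENSMUSG00000031077, chromosome 7, 144131055 to 144136200), which recruits caspase-8, had 13.1, 12.4 and 13.3 CPM in LNP-Gsdme 1 to 3, against 13.1, 14.3 and 12.4 CPM in LNP-GFP 1 to 3. These values overlapped throughout (log2 fold change -0.03 ± 0.10 SE; adjusted p = 0.847), and the sign of the Fadd difference turned without LNP-Gsdme 2 or LNP-GFP 2. The antisense transcript Faddos overlaps Fadd but had at most 6 counts in a library.

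Cflar (ENSMUSG00000026031, chromosome 1, 58750667 to 58798043), the catalytically dead partner that steers caspase-8, had 725, 698 and 714 CPM in LNP-Gsdme 1 to 3, against 702, 788 and 765 CPM in LNP-GFP 1 to 3. The LNP-Gsdme libraries lay within or below the range of LNP-GFP. For Cflar the log2 fold change came to -0.08 ± 0.07 (SE over 3 libraries a group; adjusted p = 0.497), and it passed under 0 of the 13 alternatives. Counts per gene do not separate the long and short cFLIP isoforms, which differ in what they do to caspase-8.

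**Figure D1:**
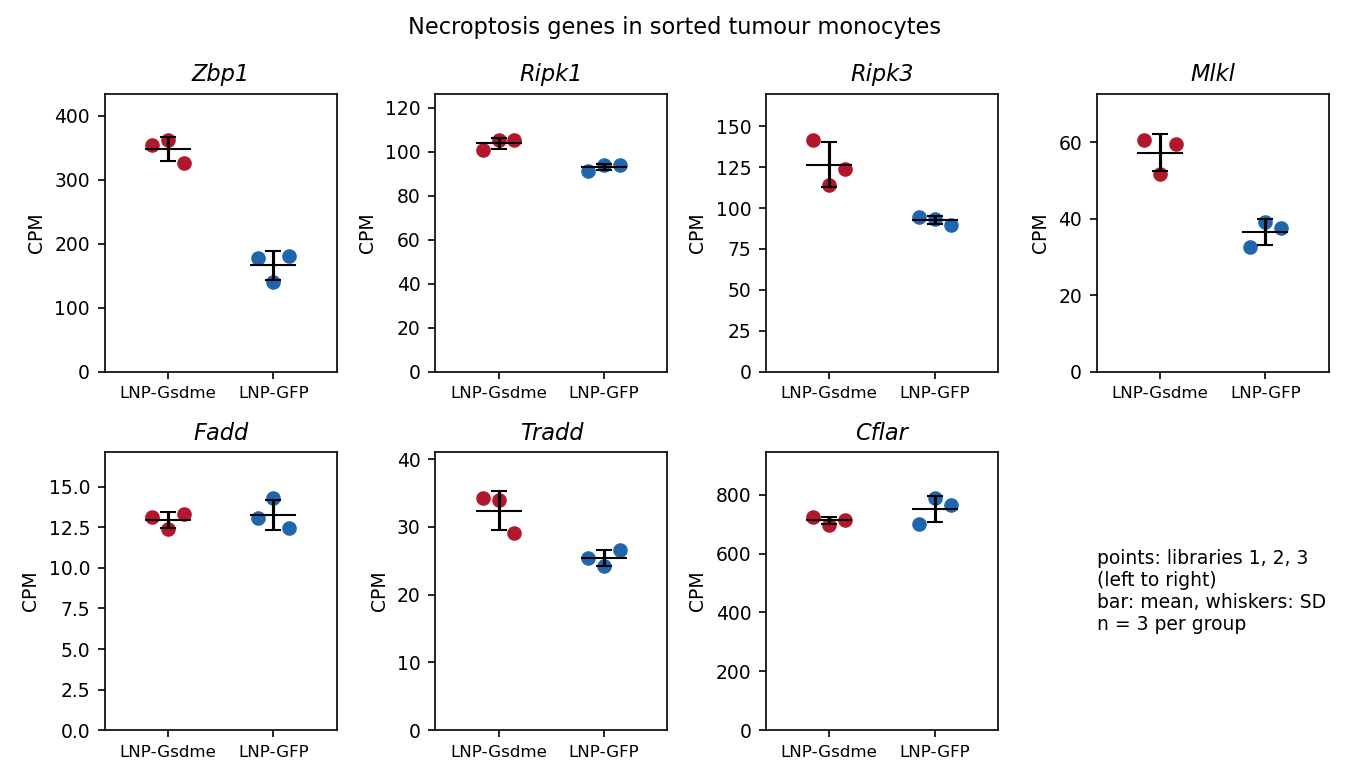
CPM of the 7 genes in each library (points, libraries 1 to 3 from left to right), with LNP-Gsdme left of LNP-GFP, the mean (bar) and SD (whiskers, n = 3 per group); each vertical axis starts at 0. Zbp1 (326 to 362 CPM in LNP-Gsdme, 140 to 181 CPM in LNP-GFP), Ripk3 and Mlkl separate most, while Fadd and Cflar overlap.

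The annotated start regions of Ripk3 and Mlkl, which rose, are printed with those of Ripk1 and Cflar, which did not pass and hold a motif match. RefSeq sequences (build GRCm38.p6, not the GRCm39 build of the count table) covered 5 of the 7 genes, in 6 windows that run from 250 bases before the start to 30 after it; Zbp1 and Tradd have no entry in that table. Capitals mark matches to the interferon-stimulated response element (ISRE, here GAAA, any pair of bases and GAAA again), which interferon-activated factors are known to bind, and to the gamma-activated sequence (GAS, TTCNNNGAA), another interferon-response motif; both strands were searched.
Ripk3, chr14:55788828-55789107, minus strand: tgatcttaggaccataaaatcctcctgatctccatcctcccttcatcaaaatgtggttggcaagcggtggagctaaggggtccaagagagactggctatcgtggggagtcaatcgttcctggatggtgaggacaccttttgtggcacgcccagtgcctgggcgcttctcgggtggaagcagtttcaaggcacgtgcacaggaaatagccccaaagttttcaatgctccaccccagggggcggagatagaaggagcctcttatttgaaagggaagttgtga
Mlkl, chr8:111338176-111338455, minus strand: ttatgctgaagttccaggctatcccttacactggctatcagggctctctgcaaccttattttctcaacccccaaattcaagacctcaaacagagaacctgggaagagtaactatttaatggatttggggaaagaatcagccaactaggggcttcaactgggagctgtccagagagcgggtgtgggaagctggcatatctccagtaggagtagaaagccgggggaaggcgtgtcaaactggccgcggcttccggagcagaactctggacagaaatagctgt
Ripk1, the downstream of its pair of starts, chr13:34002624-34002903, plus strand: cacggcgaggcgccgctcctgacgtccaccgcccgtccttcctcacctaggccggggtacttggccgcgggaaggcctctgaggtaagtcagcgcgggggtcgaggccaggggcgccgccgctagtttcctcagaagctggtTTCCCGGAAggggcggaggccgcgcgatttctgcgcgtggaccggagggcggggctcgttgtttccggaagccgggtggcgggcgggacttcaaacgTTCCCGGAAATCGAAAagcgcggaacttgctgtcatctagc
Cflar, chr1:58711241-58711520, plus strand: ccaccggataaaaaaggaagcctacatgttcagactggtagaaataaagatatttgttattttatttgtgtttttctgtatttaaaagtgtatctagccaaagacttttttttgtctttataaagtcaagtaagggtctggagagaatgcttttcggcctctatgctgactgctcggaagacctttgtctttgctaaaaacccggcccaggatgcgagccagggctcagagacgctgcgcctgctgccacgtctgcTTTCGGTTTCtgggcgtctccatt

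The ISRE letters stood in windows of Ripk1 (from base -5 to base 5 around the start) and Cflar (bases 7 to 16 after the start, on the opposite strand). They were not found in the windows of Ripk3 and Mlkl, which rose, nor in those of Fadd, which did not pass, or the upstream Ripk1 start. Zbp1, which rose, and Tradd had no window to search, and a link between the letters and the calls was not tested. Of all 32851 windows in the RefSeq table, 3.28% hold an ISRE match of this form. The same Ripk1 window holds a pair of GAS matches, TTCCCGGAA each time, the nearer of which shares bases with the ISRE match; 7.83% of all windows hold a GAS match. A match is a string of letters and no measured binding site, and these windows are short.

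Levels between genes were compared with the FPKM values the authors deposited, which divide counts by a fixed length per gene and the library total. The length that they imply for Ripk3 exceeds the span of its locus (56022452 to 56026322). How these lengths were set is not stated, so the order of genes by FPKM rests on an unverified divisor. In LNP-Gsdme, Zbp1 had the highest value of the 7 at 72.4 ± 2.63 FPKM, ahead of Cflar at 40.0 ± 1.07 FPKM (SD, n = 3). In LNP-GFP that order was the other way round, with Zbp1 at 34.0 ± 4.91 FPKM and Cflar at 41.4 ± 2.02 FPKM (SD, n = 3), and the libraries of the pair did not overlap (28.3 to 37.1 and 39.1 to 42.9 FPKM). By FPKM the order of Zbp1 and Cflar thus differed between the groups, while Cflar itself overlapped between them. In counts Cflar exceeded Zbp1 in every library: Zbp1 to Cflar was 0.457 to 0.518 in LNP-Gsdme and 0.178 to 0.252 in LNP-GFP. The change of order therefore depends on the lengths used. Below them came Ripk3 at 24.9 ± 2.49 FPKM in LNP-Gsdme and 17.9 ± 0.599 FPKM in LNP-GFP, and Mlkl at 16.9 ± 1.51 FPKM in LNP-Gsdme and 10.5 ± 0.877 FPKM in LNP-GFP. Tradd had 12.1 ± 0.823 FPKM in LNP-Gsdme and 9.34 ± 0.508 FPKM in LNP-GFP, and Ripk1 had 9.91 ± 0.454 FPKM in LNP-Gsdme and 8.71 ± 0.0740 FPKM in LNP-GFP. In LNP-GFP, Mlkl (9.53 to 11.2 FPKM) and Tradd (8.79 to 9.79 FPKM) were not separated by their spread, and Tradd lay only just above Ripk1 (8.64 to 8.78 FPKM). Fadd was the scarcest in both groups, at 3.35 ± 0.176 FPKM in LNP-Gsdme and 3.36 ± 0.214 FPKM in LNP-GFP. By their mean FPKM over all libraries, Zbp1 and Cflar stood above 93.9% and 92.2% of tested genes, and Fadd above 52.6%.

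**Figure D2:**
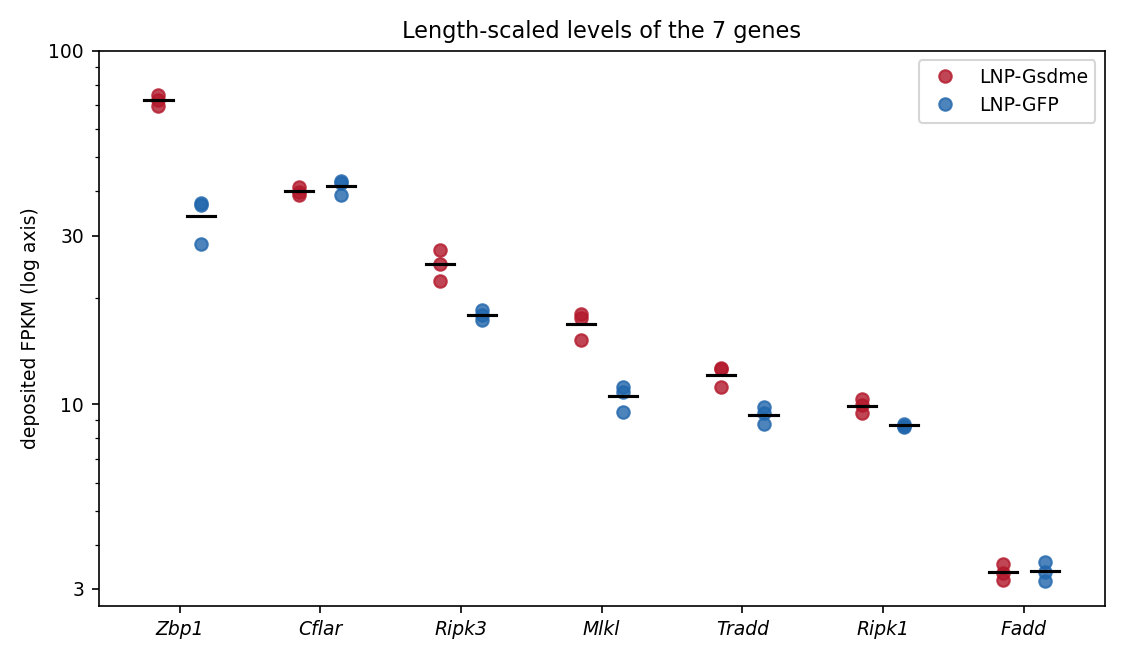
Deposited FPKM of the 7 genes on a log axis, ordered by the LNP-Gsdme mean, with LNP-Gsdme (red) left of LNP-GFP (blue); points are libraries and bars are means (n = 3 per group). On this scale Zbp1 lies above Cflar in LNP-Gsdme and below it in LNP-GFP, and Fadd is lowest in both. In counts Cflar exceeds Zbp1 in every library.

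Whether the genes changed by unequal amounts was examined with ratios within each library, which do not depend on the scaling between libraries. The ratio of Zbp1 to each of the other 6 genes was higher in every LNP-Gsdme library than in every LNP-GFP library. In FPKM, Zbp1 to Ripk3 was 2.65, 3.37 and 2.80 in LNP-Gsdme 1 to 3, against 1.98, 1.59 and 2.14 in LNP-GFP 1 to 3, a log2 difference of 0.63. Zbp1 to Mlkl differed least, by 0.42 on the log2 scale, and its groups lay close, with count ratios of 5.47 to 6.98 in LNP-Gsdme against 3.57 to 5.41 in LNP-GFP; without LNP-GFP 2 the difference was 0.25. Zbp1 to Cflar differed most, by 1.15 on the log2 scale.

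Caspase-8 acts as the switch between apoptosis and necroptosis, and the ratio of its transcript to that of Cflar was examined too. In FPKM, the ratio of Casp8 to Cflar was 0.796, 0.846 and 0.757 in LNP-Gsdme 1 to 3, against 0.545, 0.505 and 0.490 in LNP-GFP 1 to 3. Ripk3 to Ripk1 was 2.90, 2.24 and 2.42 in FPKM in LNP-Gsdme 1 to 3, against 2.14, 2.05 and 1.97 in LNP-GFP 1 to 3. Mlkl to Ripk3 was 0.641 to 0.720 in LNP-Gsdme against 0.515 to 0.628 in LNP-GFP. Each of these 3 ratios was higher in all LNP-Gsdme libraries, with small gaps for the last pair. On the log2 scale Ripk3 to Ripk1 differed by 0.29, or 0.18 without LNP-Gsdme 1, and Mlkl to Ripk3 by 0.21, or 0.11 without LNP-GFP 1. Each of the 9 ratios examined had an exact two-sided permutation p of 0.1, also after adjustment over the 9, and 0.1 is the smallest that 3 against 3 allows, so none could reach 0.05.

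Around the 7 genes, 77 others of the pathway were taken as 5 lists, of which 14 went up, 2 went down and 61 did not pass the test. The median of the 77 was 0.15 on the log2 scale. Over all 16010 tested genes, beside which these and the list counts below stand, 6.30% rose, 5.32% fell and the median was -0.01. Of 12 death and danger receptors with their ligands and adaptors, 3 rose and 0 fell (median 0.30). Tnfrsf1a, the receptor through which tumour necrosis factor starts this pathway, averaged 363 ± 19.4 CPM in LNP-Gsdme and 220 ± 4.13 CPM in LNP-GFP (SD, n = 3 each; log2 fold change 0.72 ± 0.07 SE, adjusted p = 0.00584). Tlr4 and Tlr3, which reach RIPK3 through TRIF, rose by log2 fold changes of 2.66 and 0.57. Ticam1, which encodes TRIF, stood at 95.2 ± 5.78 CPM in LNP-Gsdme and 78.6 ± 9.65 CPM in LNP-GFP (SD, n = 3 each; adjusted p = 0.132). Tnf itself did not pass: it had 468, 421 and 578 CPM in LNP-Gsdme 1 to 3, against 547, 863 and 721 CPM in LNP-GFP 1 to 3 (log2 fold change -0.54, adjusted p = 0.114), and is named here after its values were seen. Tnf was called as fallen by DESeq2 and without LNP-GFP 1, and did not pass under the other alternatives.

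Of 9 caspases and mitochondrial death factors below FADD, 3 rose and 0 fell (median 0.41). Casp8 averaged 118 ± 5.40 CPM in LNP-Gsdme and 79.7 ± 2.36 CPM in LNP-GFP (SD, n = 3 each; log2 fold change 0.56 ± 0.07 SE, adjusted p = 0.00991). Apaf1, the apoptosome scaffold, rose by 0.35 on the log2 scale (edgeR adjusted p = 0.0388). Of 25 genes for ubiquitin ligases, deubiquitinases, adaptors and kinases that act at the RIPK1 receptor complex, 2 rose and 2 fell (median 0.11). These counts are about the shares over all tested genes (6.30% rose and 5.32% fell). Tank, a scaffold for TBK1, and Rnf31, the catalytic subunit of the linear ubiquitin ligase, rose by 0.46 and 0.34 on the log2 scale. Traf5, a receptor adaptor, had a log2 fold change of -0.64, and Mapkapk2, a kinase that phosphorylates RIPK1 to restrain it, one of -0.61 (636 ± 28.1 CPM in LNP-Gsdme and 971 ± 189 CPM in LNP-GFP; SD, n = 3 each). The edgeR adjusted p was 0.0254 for Traf5 and 0.0435 for Mapkapk2.

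Of 18 genes that regulate MLKL or repair and shed damaged membrane, 3 rose and 0 fell (median 0.03). They were Itpk1, an inositol phosphate kinase, Flot1, which encodes flotillin-1, and Chmp2a, an ESCRT-III subunit, at log2 fold changes of 0.58, 0.37 and 0.34. Their edgeR adjusted p-values were 0.0472, 0.0216 and 0.0254. Of 13 genes of interferon input and Z-RNA editing, 3 rose and 0 fell (median 0.38). Among them Tyk2 and Ifngr2, an interferon receptor kinase and an interferon gamma receptor chain, rose by 0.68 and 0.49 on the log2 scale. The edgeR adjusted p was 0.0477 for Tyk2 and 0.0360 for Ifngr2. Adar, the RNA editor that shares the Z-nucleic-acid-binding domain with ZBP1 and limits its activation, averaged 184 ± 19.6 CPM in LNP-Gsdme and 134 ± 15.9 CPM in LNP-GFP (SD, n = 3 each; log2 fold change 0.46, adjusted p = 0.0567). Adar too lay near the threshold, passing by DESeq2 (adjusted p = 0.0141), with library-size scaling alone (0.0375) and without LNP-Gsdme 3 (0.0390), with a range of 0.0141 to 0.174 over the 13 alternatives.

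These pathway counts depended on the method and on single libraries. Of the 77 genes, DESeq2 called 18 up and 8 down, and without the low-count filter edgeR called 9 up and 3 down. Rnf31 lay at the threshold: its adjusted p was 0.0499, against 0.0501 by limma-voom, 0.0545 with RLE factors and 0.0739 without the filter. Apaf1 and Itpk1 also did not pass without the filter (edgeR adjusted p = 0.0548 and 0.0611). Without LNP-GFP 3, Tlr4 alone of the 77 rose and 0 fell, and Casp8 and Tnfrsf1a had adjusted p-values of 0.0731 and 0.0522. Without LNP-Gsdme 1 or without LNP-Gsdme 2, Tlr4 and Tnfrsf1a rose and 0 fell. Without LNP-GFP 1 the counts were 17 and 7. LNP-GFP 3 lay between the other LNP-GFP libraries in its counts: the chi-square per gene was 22.2 against LNP-GFP 1 and 18.5 against LNP-GFP 2, beside 58.0 between those.

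**Figure D3:**
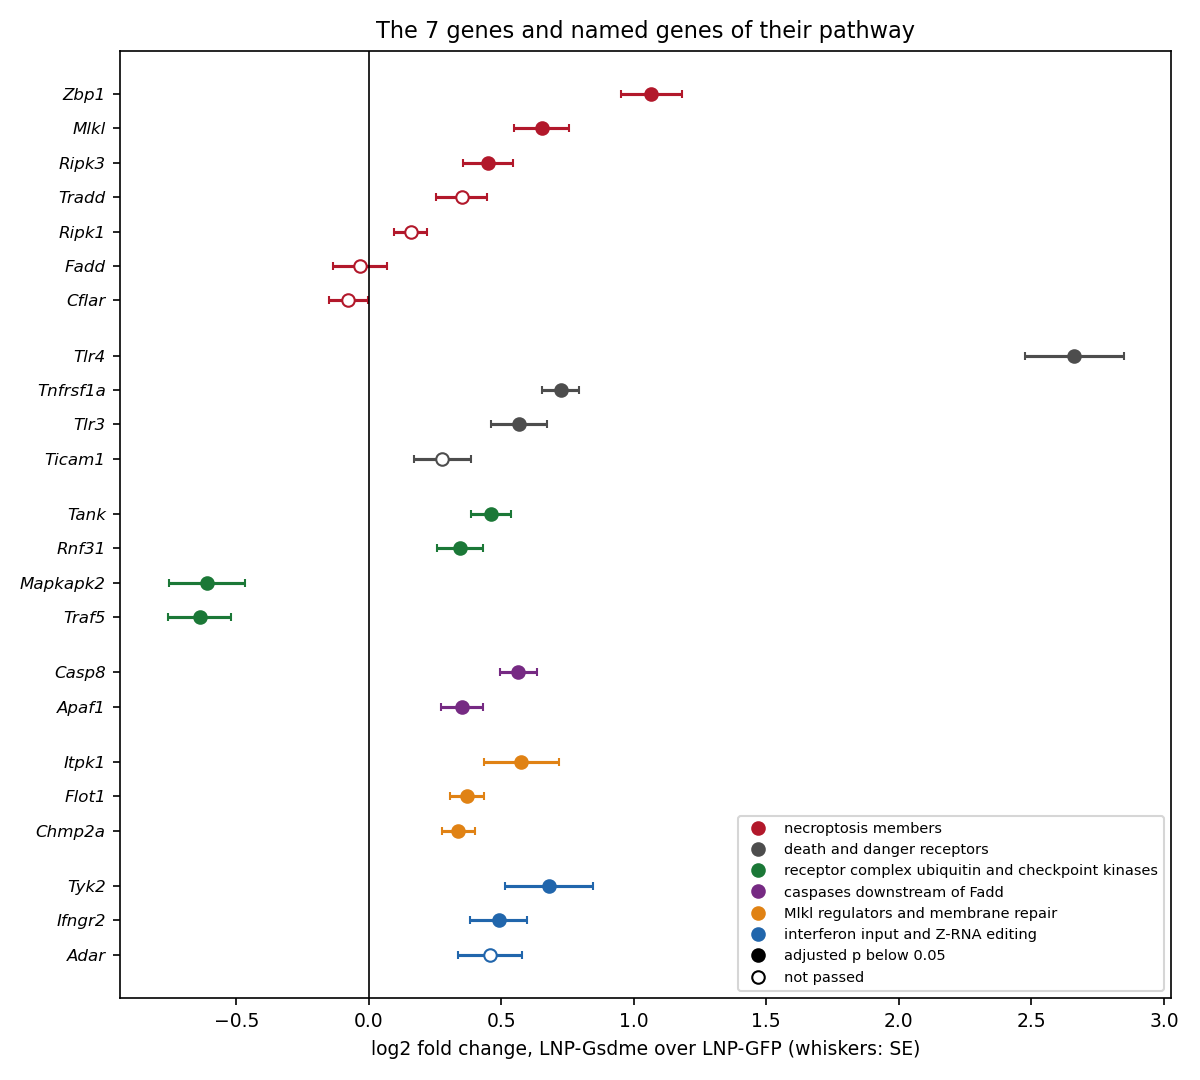
Log2 fold changes (LNP-Gsdme over LNP-GFP; whiskers are SE, n = 3 per group) of the 7 genes and of the genes named from the 5 pathway lists; filled points passed at an adjusted p below 0.05. Zbp1 at 1.07 leads the 7 genes, Tlr4 at 2.66 is the largest change drawn, and Traf5 and Mapkapk2 lie below 0.

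The genes whose log2 CPM was most like that of Zbp1 over the 6 libraries, among 10258 genes compared, were Coq10a, Vrk2, Fanca, Phf11a and H2-Q6, with Pearson r of 0.999, 0.999, 0.999, 0.998 and 0.997. Their log2 fold changes were 0.48, 0.81, 0.96, 2.14 and 0.75, and all 5 rose. Each was lowest in LNP-GFP 2, as Zbp1 was; H2-Q6, for example, a non-classical MHC class I gene, had 259, 259 and 239 CPM in LNP-Gsdme 1 to 3, against 152, 138 and 161 CPM in LNP-GFP 1 to 3. Phf11a and H2-Q6 belong to families of close copies, so their counts are uncertain. The genes most like Mlkl were a different 5, namely Zbtb21, Tnfsf9, Psmc6, Rhov and Kctd13 (r of 0.993, 0.992, 0.990, 0.990 and 0.987), of which Psmc6 did not pass (adjusted p = 0.0870) and the other 4 rose. Zbtb21, for example, had 88.0, 74.2 and 82.5 CPM in LNP-Gsdme 1 to 3, against 54.9, 60.5 and 60.1 CPM in LNP-GFP 1 to 3. The libraries fall into their groups for all these genes, so r mainly describes the difference between groups and the order within them, and it carries no test.

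**Figure D4:**
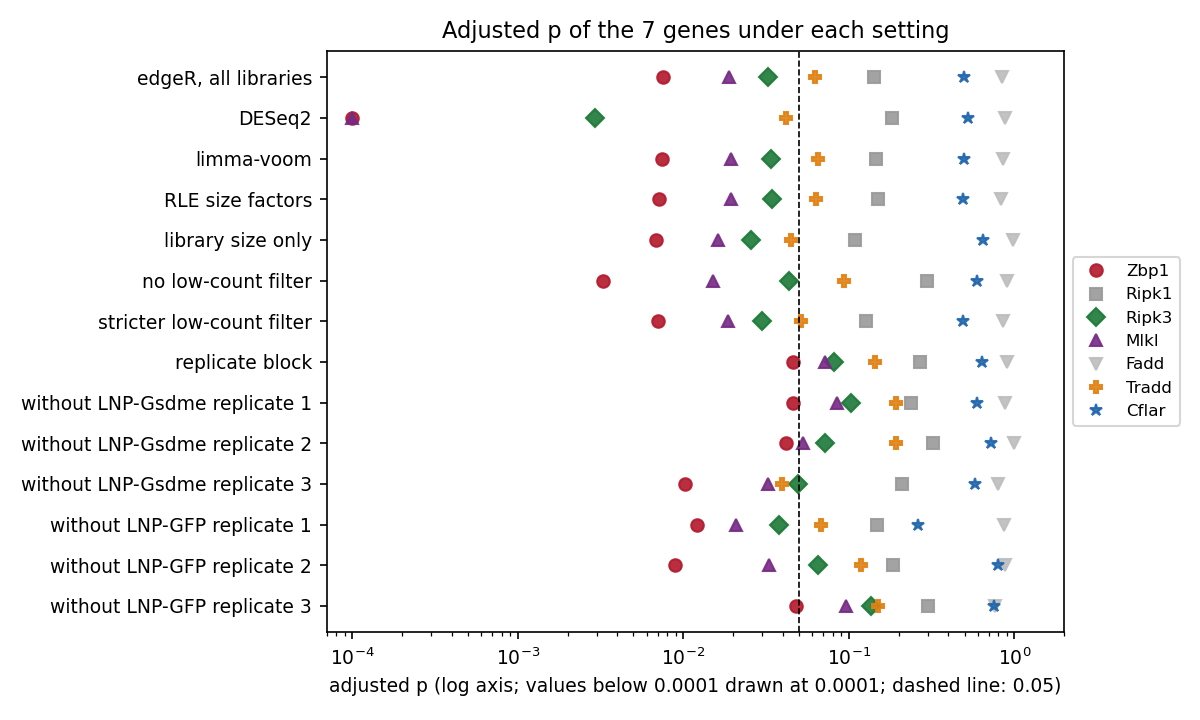
Benjamini-Hochberg adjusted p (log axis) of the 7 genes under edgeR with all libraries and under each of 13 alternatives (rows); the dashed line marks 0.05 and values below 0.0001 are drawn at 0.0001. Zbp1 stays left of the line in every row (highest 0.0482), Mlkl and Ripk3 cross it in 4 and 5 alternatives, and Ripk1, Fadd and Cflar lie to its right in all rows.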

How the data were processed

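RNA-seq counts of 6 libraries (3 LNP-Gsdme, 3 LNP-GFP) were used. Per the labels' protocols, RNA was column-extracted, treated with DNase and made into paired-end TruSeq libraries. The authors deposited raw counts and FPKM per gene and library, per the file headers. The submitters' processing notes name GRCm39; the aligner, the counter, its strand setting and the annotation are unstated in the sources used. The deposited FPKM values equal counts over a fixed length per gene and the library total (on 11356 genes above 50 counts everywhere, the length this implies differed by at most 0.00178% between libraries) and served only for levels between genes. Genes without a symbol (1542) kept their identifiers.

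Groups came from the treatment label, replicate numbers from the titles. Counts were filtered with filterByExpr (16010 genes left), scaled with TMM factors (0.980 to 1.04) and tested in R 4.3.3 with edgeR 4.0.16 (robust quasi-likelihood test, Benjamini-Hochberg adjustment over all tested genes, called below 0.05, checked on simulated data). CPM are over the tested genes' totals times the TMM factors. The SE is the log2 fold change divided by the square root of its F value. At 15991826 to 22932095 counts per library, each of the 7 genes had 199 counts or more. Counting error weighs most on Fadd (199 to 312 counts), where it can make up much of the spread between libraries. Sums and ratios were tested with exact permutation tests (scipy 1.17.1). Alternatives were DESeq2 1.42.0, limma-voom (limma 3.58.1), RLE factors, library size only, no filter, a stricter filter (1 CPM on average and 10 counts in 3 libraries), the replicate number as a block and each library left out. Log2 CPM for likeness used a prior count of 2 and genes with an average of at least 2.

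The 7 genes, the 5 pathway lists and the 10 marker lists were chosen with earlier results of these data known. The text names all 7 genes, Gsdme, Casp8, Ticam1 and Adar, up to 3 called genes with the smallest p per direction of each pathway list, the 5 genes most like Zbp1 and like Mlkl, and the most abundant marker of each list (Lyz2, Apoe, S100a9, Ccr7, Prf1, Cd8a, Ighm, Col1a1, Kdr and Dct); other genes were named after their values were seen. Some items that this rule picks are not reported here.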

Additional observations from a re-analysis of the deposited data

How the results depend on the processing

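Zbp1 kept its rise under all 13 alternatives, and Ripk1, Fadd and Cflar stayed outside the threshold under all 13. With the replicate number as a block, 1 of the 7 genes rose: Ripk3 (log2 fold change 0.44, adjusted p = 0.0814) and Mlkl (0.65, 0.0718) no longer passed, and 103 genes rose and 52 fell in all. The deviations of same-numbered libraries from their group means correlated at 0.21, -0.24 and 0.031. These values had no reference to be set against, so they cannot decide whether the numbers pair the samples. Tradd passed by DESeq2 (0.34) and with library size only (0.38). DESeq2 called 1525 falling genes, against 851. With libraries left out in turn, 1 to 4 of the 7 genes rose, and 64 to 1625 genes rose and 24 to 1216 fell in all. The log2 fold changes then ran from 0.36 to 0.52 for Ripk3, 0.59 to 0.72 for Mlkl, 0.31 to 0.43 for Tradd and -0.070 to 0.031 for Fadd. The sign turned for Fadd without LNP-Gsdme 2 (0.00031) or LNP-GFP 2 (0.031). It also turned for markers near 0: Ighm without 1 library (-0.24 to 0.17; above 0 at 0.031, 0.12 and 0.17), S100a9 by limma-voom (0.17) and without 1 library (-0.70 to 0.65; above 0 at 0.085, 0.28 and 0.65), and the B cell sum with library size only (0.0044). The cause was not tested, except that leaving out a library also leaves fewer samples to estimate the spread. In all, 663 comparisons of a value with its alternative concerned genes outside the 7 and the pathway lists, some of them given above. Of these, 484 kept their direction and call or, for counts, stayed within 1.5 times. A call was lost in 114 and gained in 8, and 50 counts moved over 1.5 times. The 7 that turned sign are those of Ighm and S100a9 already listed.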
